A study of Sus scrofa with 4 samples.

Results

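The mitochondrial calcium uniporter is the channel of the inner mitochondrial membrane through which calcium enters the matrix. Genes of this complex were chosen by name, and 5 of the 29692 gene symbols in the deposited table belonged to the set, which were MCU, MCUB, MICU2, MICU3 and SMDT1. Each symbol had 1 row. The members were chosen when earlier results of these libraries were known, among them the low MCUB values of the Hampshire libraries, so their breed differences are given as a description.

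RNA was sequenced from biopsied muscle of Hampshire pigs and Mali pigs (Sus scrofa), in 4 libraries, 2 for each breed. The labels give no treatment, genetic modification, age or muscle for either breed, and the series sets the breeds against each other because they differ in muscularity. No label ties a library to its own animal, so any spread between libraries of a breed may be technical. Values are FPKM, fragment counts normalised to gene length and sequencing depth, which allows levels of different genes to be set side by side.

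In mitochondria, MCU forms the pore and SMDT1, also called EMRE, holds the pore and its gatekeepers together. MCUB is a paralog of MCU that enters the same pore, and in mouse and human cells it lowers calcium uptake. MICU2 senses calcium outside the matrix and helps to keep the pore shut at rest, and MICU3, known in the mouse from brain and skeletal muscle, favours opening at lower calcium. In skeletal muscle, calcium taken up during contraction stimulates enzymes of the pyruvate dehydrogenase and tricarboxylic acid cycle steps, and in mice the level of MCU affects muscle fibre size.

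The libraries differed in more than breed. FPKM summed to between 516463 and 988614 per library, the lowest in Mali replicate 1, and genes of the mitochondrial genome took 42.5% of the sum in Hampshire replicate 1 against 17.1% to 21.3% in the others. Libraries of the same replicate number also shared steps among their lowest values. Of low rows, 10.2% had the same ratio between Hampshire replicate 1 and Mali replicate 1 and 2.10% between Hampshire replicate 2 and Mali replicate 2, against at most 0.546% for any other combination. The libraries were therefore also compared within these pairs, pair 1 and pair 2 by their replicate number. The most common ratio within pair 1 was 1.22 for Hampshire replicate 1 over Mali replicate 1. If the steps are single fragments, which was not tested, 1 fragment was worth that many times as much FPKM there. The corresponding value for Hampshire replicate 2 over Mali replicate 2 was 0.946. Absolute read totals are unknown, since the table holds no counts. Markers of muscle fibres were high in every library, with fast fibre markers summing to between 33726 and 88647 FPKM and slow fibre markers to between 2522 and 6349.

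MCU, the pore subunit, overlapped between the breeds. It lies on chromosome 14 (75518533 to 75721502, plus strand, Sscrofa11.1). Hampshire replicates 1 and 2 had 32.5 and 25.0 FPKM, and Mali replicates 1 and 2 had 29.9 and 32.9 FPKM. The lowest and the second highest values both came from Hampshire, so the breeds overlapped. The mean was 28.7 ± 5.30 FPKM for Hampshire and 31.4 ± 2.19 for Mali (SD, n = 2 each). On the log2(FPKM + 1) scale, used for differences in level unless stated otherwise, the difference was -0.13 (standard error 0.43) in Hampshire relative to Mali, and its 95% interval ran from -1.14 to 0.87, so a change by 1 log2 unit lower was within it. The sign turned to 0.13 with quantile normalization and to 0.049 without Hampshire replicate 2.

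MCUB, the pore paralog, had the largest breed difference of the 5 genes. It lies on chromosome 8 (112539188 to 112651417, minus strand). It was at 1.09 and 1.26 FPKM for Hampshire versus 4.80 and 6.96 for Mali. Both Mali libraries lay above both Hampshire libraries, with a gap wider than the spread within either breed. The mean was 1.18 ± 0.117 FPKM for Hampshire and 5.88 ± 1.53 for Mali (SD, n = 2 each), which is 4.99 times as high in Mali. Among tested genes of the same library, MCUB stood at percentiles 7.27 and 6.91 for Hampshire versus 45.1 and 55.0 for Mali. The fitted difference was -1.64 (standard error 0.33), and it understates the change because 1 is added to values near 1. Without that addition the log2 ratio of the breed means was -2.32. Within pair 1 the log2 ratio was -2.13 and within pair 2 -2.47.

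The Hampshire level of MCUB lay close to the filter of 1 FPKM in at least 2 libraries, which MCUB would also have passed through its Mali libraries alone. The RefSeq annotation places 1 other gene, LOC110262173, over part of MCUB, and it was listed at 0 in all 4 libraries. In bulk muscle, fewer cells that express a gene and less RNA per cell cannot be told apart. Across 9 marker lists of muscle fibres and other cell types, the median difference was above 0 in 9, the direction opposite to that of MCUB. For macrophage, fibroblast and smooth muscle markers it stayed above 0 under all 16 other settings, and for leukocyte markers under the 15 in which any of them was tested. Of these settings, the variance setting, row choice and the library pair as a term left the medians unchanged. For the other 5 lists the sign turned in at least 1 setting. Fast fibre markers were at -0.22 on a common sum, at -0.36 with quantile normalization and at -0.66 without Mali replicate 1, which also brought slow fibre markers to -0.098 and red blood cell markers to -0.18. Without Hampshire replicate 2, adipocyte markers were at -0.32 and endothelial markers at -0.097. Macrophage markers, with 8 of 9 tested genes higher in Hampshire, summed to 66.0 and 117 FPKM for Hampshire versus 45.2 and 30.5 for Mali. Leukocyte markers, with 5 of 5 higher, summed to 12.0 and 13.0 FPKM against 7.71 and 4.51. Fibroblast markers, with 6 of 7 higher, summed to 472 and 1412 FPKM against 109 and 335. Endothelial markers summed to 45.8 and 79.0 FPKM against 45.6 and 45.3, and for the other 5 lists the summed levels of the breeds overlapped. Single markers overlapped more often. Without overlap, 6 of 9 macrophage and 3 of 5 leukocyte markers were higher in Hampshire, against 13.0% of all tested genes. The same held for 4 of 7 fibroblast and 1 of 7 endothelial markers. Of all markers in the table, LEP, an adipocyte gene, was the 1 at 0 in a library. The part of these cell types in the MCUB values was not tested.

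**Figure D1:**
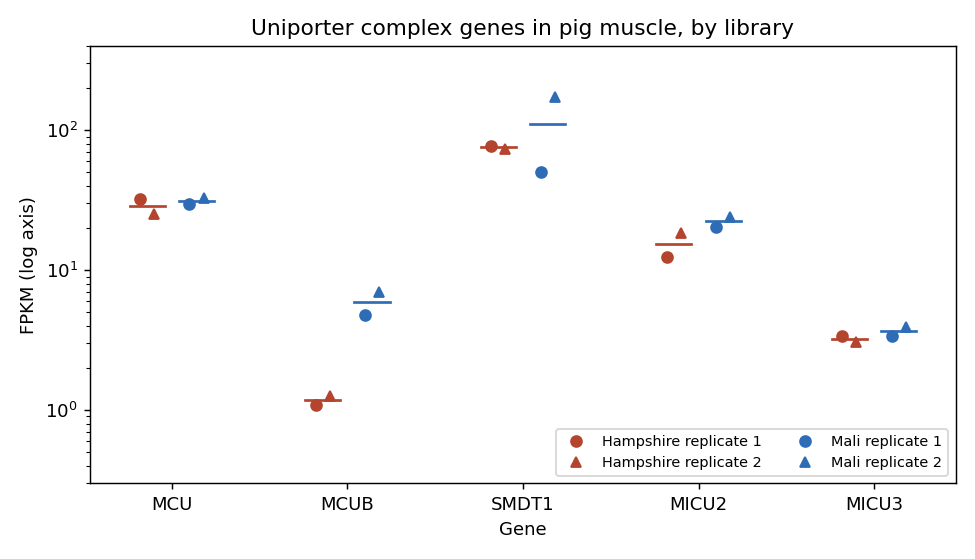
FPKM of the 5 uniporter genes in each library, on a log axis, with circles for replicate 1, triangles for replicate 2 and bars for the mean of each breed (n = 2). MCUB is at 1.09 and 1.26 FPKM for Hampshire versus 4.80 and 6.96 for Mali, whereas MCU lies between 25.0 and 32.9 FPKM in all 4 libraries.

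SMDT1, the scaffold of the pore, was the most abundant of the 5 transcripts in every library. It is a short gene on chromosome 5 (6568430 to 6571370, minus strand) with a span of 2941 bp. It was at 76.8 and 73.8 FPKM for Hampshire versus 50.4 and 171.6 for Mali. The Hampshire libraries nearly coincided and lay between the Mali libraries. Means were 75.3 ± 2.12 and 111 ± 85.7 FPKM (SD, n = 2 each), with a difference of -0.30 and a standard error of 0.65. The direction rests on 1 library, since the difference was 0.57 without Mali replicate 2 and -1.18 without Mali replicate 1. The difference was 0.60 within pair 1 and -1.21 within pair 2. With quantile normalization it was 0.021.

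Of the gatekeepers, MICU2 was lower in both Hampshire libraries. It lies on chromosome 11 (1421169 to 1500411, minus strand). Its values were 12.5 and 18.4 FPKM for Hampshire versus 20.4 and 24.1 for Mali. The breeds did not overlap, but the upper Hampshire value and the lower Mali value were close compared with the spread inside Hampshire. The means of 15.4 ± 4.14 and 22.3 ± 2.61 FPKM gave a difference of -0.52 (standard error 0.42) and a 95% interval from -1.51 to 0.46. It was -0.67 within pair 1 and -0.38 within pair 2. It was negative under all 16 other settings tried, between -0.85 and -0.26. Of these settings, other filters, the variance setting, row choice and the library pair as a term cannot change this estimate.

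MICU3, the gatekeeper with a role in excitable tissue, was low and level. It lies on chromosome 17 (4720918 to 4827996, plus strand), and an overlapping gene there, LOC102161130, reached 0.0204 FPKM in 1 library and was listed at 0 in the others. MICU3 was at 3.38 and 3.07 FPKM for Hampshire versus 3.40 and 3.92 for Mali. The breeds did not overlap, but Hampshire replicate 1 and Mali replicate 1 were nearly equal. The difference was -0.14 (standard error 0.32), and -0.0055 within pair 1 against -0.27 within pair 2.

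Both Hampshire libraries showed the same order of FPKM levels, SMDT1, MCU, MICU2, MICU3 and MCUB from high to low. In both Mali libraries MCUB stood above MICU3 and the order was otherwise the same. In Mali, SMDT1 at 111 ± 85.7 FPKM and its neighbour MCU at 31.4 ± 2.19 FPKM differed by less than the SD of SMDT1 (n = 2 each). For the other neighbours the means differed by more than the SD of either gene in both breeds. MCUB and MICU3 lay apart in both breeds, with MCUB below MICU3 in each Hampshire library and above it in each Mali library.

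The ratio of MCUB to MCU does not depend on how a library was scaled, because both values come from the same library. It was 0.0337 and 0.0505 in Hampshire replicates 1 and 2 and 0.161 and 0.211 in Mali replicates 1 and 2. Per 100 units of MCU transcript level there were thus 3.37 and 5.05 units of MCUB in Hampshire and 16.1 and 21.1 in Mali. The lower Mali ratio was above the higher Hampshire ratio. Means were 0.0421 ± 0.0118 and 0.186 ± 0.0357 (SD, n = 2 each), which is 4.42 times as high in Mali. On the log2 scale the ratio differed by -2.16 between breeds, -2.25 within pair 1 and -2.07 within pair 2, where the pooled SD within breeds was 0.35. An exact permutation test of 2 against 2 libraries cannot give a two-sided p below 0.333, and none was run on this ratio.

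For the other genes the breeds overlapped once set against MCU. The ratio of MICU2 to MCU was 0.385 and 0.735 for Hampshire versus 0.684 and 0.732 for Mali, so the low value came from Hampshire replicate 1 alone. MICU3 stood at 0.104 and 0.123 of MCU for Hampshire versus 0.114 and 0.119 for Mali, the narrowest range of the set. SMDT1 stood at 2.36 and 2.95 times MCU in Hampshire and at 1.69 and 5.21 times in Mali.

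Mitochondrial gene levels, high in Hampshire replicate 1 and Mali replicate 2, served as another yardstick. The geometric mean of 16 nuclear-coded genes of mitochondrial structure and respiration was 77.0 and 55.1 FPKM for Hampshire versus 52.7 and 89.6 for Mali. Relative to it, MCUB was at 0.0142 and 0.0229 for Hampshire versus 0.0911 and 0.0776 for Mali, a log2 difference of -2.22, so the MCUB difference was as large against this yardstick as against MCU. MCU was at 0.422 and 0.453 of this mean for Hampshire versus 0.567 and 0.368 for Mali, and the breeds overlapped. SMDT1 was at 0.998 and 1.34 times this mean in Hampshire and at 0.957 and 1.91 times in Mali.

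**Figure D2:**
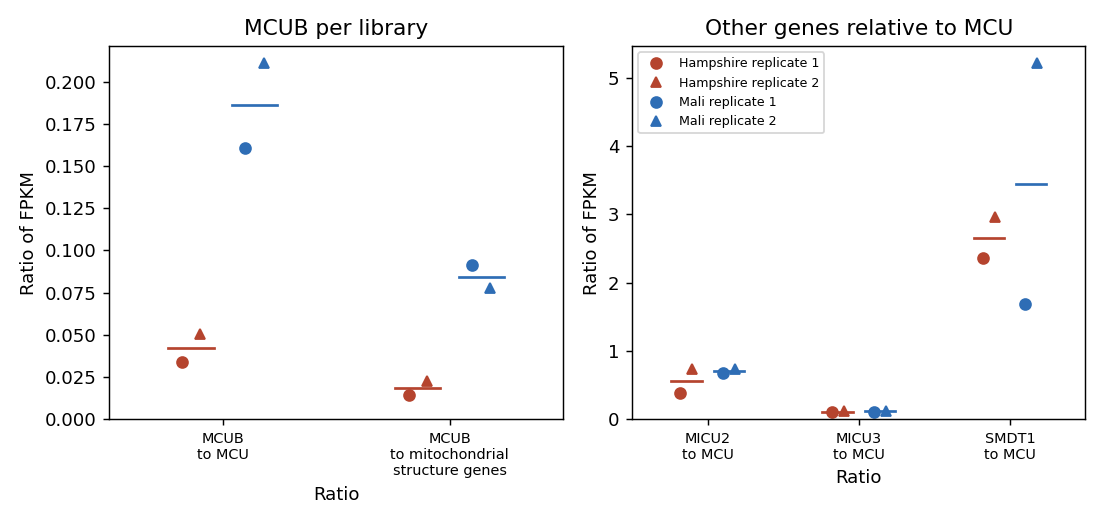
Ratios of FPKM within each library, with circles for replicate 1, triangles for replicate 2 and bars for breed means (n = 2). The left panel shows MCUB relative to MCU and to the geometric mean of 16 mitochondrial structure genes, where both Mali libraries lie above both Hampshire libraries, and the right panel shows 3 other genes relative to MCU, where the breeds overlap.

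Against the whole table, no gene was called. Limma on all 10075 genes that reached 1 FPKM in at least 2 libraries, with Benjamini-Hochberg adjustment, gave 0 genes with adjusted p under 0.05, which is 0% of those tested, and 0 of the 5 members. At an unadjusted p under 0.05 there were 714 genes, or 7.09%, and 1 of the 5 members, MCUB. All 5 passed the filter on low values. All 5 had a negative difference, as did 60.5% of tested genes, and for MCU and SMDT1 the sign turned with quantile normalization. For 3 of the 5, MCUB, MICU2 and MICU3, both Hampshire libraries lay below both Mali libraries, which held for 23.6% of tested genes, and 0 of the 5 lay above, against 13.0%. By definition the same 3 genes were then also lower in Hampshire within both pairs, as were 35.4% of tested genes. MCUB was chosen with its difference known, so nothing is read from these counts. A log2 difference at or below that of MCUB was found for 57 of the 10075 genes.

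With the library pair as a term in the limma fit, 261 genes or 2.59% were called, and 1 of the 5 members, MCUB, with adjusted p = 0.00425. With size factors added to that fit the MCUB call was lost, at adjusted p = 0.0634, and 57 genes or 0.566% were called. The fit with the pair alone left 1 residual degree of freedom and took 27.4 from the other genes. In the authors' deposited table, 65 genes or 0.215% were marked as significant, and 0 of the 5 members. The authors' deposited table gave MCUB a log2 fold change of -2.32 for Hampshire over Mali with p = 0.0036 and q = 0.217. For MCU, MICU2, MICU3 and SMDT1 the q-value in the authors' deposited table was 0.999.

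Genes around the complex were read from 5 lists with 57 tested genes. Of these, 0 passed the limma test at adjusted p under 0.05, as over all tested genes. An unadjusted p under 0.05 was found for 2 of the 57, against 7.09% of all tested genes. Breeds did not overlap for 11 of the 57, against 36.6% of all tested genes. Of the 57, 8 were lower in Hampshire without overlap, against 23.6% of all tested genes, and 3 were higher, against 13.0%. No gene of these lists had a difference as low as that of MCUB. In 35 of the 57 the Hampshire library was higher within pair 1 and lower within pair 2, a combination found in 25.5% of all tested genes. Genes of the complex differed from one another in this respect, since MCU and SMDT1 showed that combination and MCUB, MICU2 and MICU3 did not. The list medians given next also depended on single libraries. With 1 library left out in turn, the median of the pore regulators ran from -0.11 to 0.070 and that of the outer membrane genes from -0.18 to 0.070. That of the enzymes and carriers ran from -0.56 without Mali replicate 1 to 0.23 without Mali replicate 2, and that of the structure genes from -0.40 to 0.47 without the same libraries.

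The pore regulators and assembly factors had 10 tested genes, 4 with a positive and 6 with a negative difference. Their median was -0.097, against -0.12 over all tested genes, and it turned to 0.022 with size factors and to 0.026 with quantile normalization. It also turned to 0.061 without Mali replicate 1, to 0.047 without Mali replicate 2 and to 0.070 without Hampshire replicate 2. UCP2, an inner membrane carrier proposed to affect uniporter activity, was at 2.74 and 2.80 FPKM for Hampshire versus 2.04 and 0.879 for Mali, with adjusted p = 0.806 in limma. MAIP1, which helps SMDT1 mature, was at 4.83 and 4.01 FPKM for Hampshire versus 5.45 and 10.7 for Mali, with adjusted p = 0.858. TMEM65, an inner membrane protein tied to sodium-dependent calcium efflux, was at 5.45 and 4.92 FPKM for Hampshire versus 2.36 and 3.98 for Mali. Its adjusted p was 0.858 too, and for these 3 genes the breeds did not overlap. In the whole list 30% of genes were without overlap, against 36.6% of all tested genes. AFG3L2, a subunit of the inner membrane protease that removes unassembled SMDT1, was at 16.1 and 14.3 FPKM for Hampshire versus 13.5 and 24.1 for Mali, which overlapped, with adjusted p = 0.969. UCP3, the muscle uncoupling protein, was singled out after its values were seen, because it differed by -2.43 within pair 1 and by 1.53 within pair 2. It was at 16.7 and 44.9 FPKM for Hampshire versus 94.8 and 15.0 for Mali.

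Calcium efflux and exchange genes had 4 tested members, all with a negative difference, as had 60.5% of all tested genes. Their median was -0.31, against -0.12 over all tested genes. The median stayed below 0 under the 16 other settings, of which the variance setting, row choice and library pair left it unchanged. With 1 library left out in turn it ran from -0.91 without Mali replicate 1 to -0.18 without Hampshire replicate 2. LETM1, an inner membrane protein of cation and calcium exchange, was at 6.30 and 5.54 FPKM for Hampshire versus 11.2 and 12.5 for Mali. Its breeds did not overlap, and the difference was -0.90 (standard error 0.36), with a limma adjusted p = 0.697. It was -0.74 within pair 1 and -1.05 within pair 2. Over all 4 libraries, the difference of -0.90 was the lowest of the 57 pathway genes as reported. GHITM, also called TMBIM5, was at 131.0 and 104.9 FPKM for Hampshire versus 106.4 and 214.0 for Mali. PPIF, the cyclophilin of the permeability transition pore, was at 12.9 and 10.7 FPKM against 6.24 and 23.9, and LETMD1 at 2.24 and 1.85 against 3.57 and 1.88. The breeds overlapped for GHITM, PPIF and LETMD1, so 25% of the list was without overlap, against 36.6% of all tested genes. Within pair 1, GHITM and PPIF were higher in Hampshire, by 0.30 and 0.94. SLC8B1, the sodium-calcium exchanger of the inner membrane, and LETM2 did not reach the filter.

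Outer membrane channels and contact sites with the endoplasmic reticulum had 16 tested genes, 8 positive and 8 negative, with a median of 0.0053 that was -0.32 after rescaling to a common sum. VAPB, a tether of the endoplasmic reticulum, was at 30.1 and 22.3 FPKM for Hampshire versus 43.7 and 41.2 for Mali and was the 1 gene of this list whose breeds did not overlap, with adjusted p = 0.870. FIS1, an outer membrane fission factor, was at 109.5 and 77.2 FPKM for Hampshire versus 98.8 and 238.0 for Mali. BCAP31, an endoplasmic reticulum membrane protein, was at 87.1 and 50.4 FPKM against 78.7 and 115.2. RHOT2, a calcium-binding GTPase of mitochondrial transport, was at 0.616 and 1.42 FPKM against 1.56 and 1.30.

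Calcium-sensitive enzymes and carriers of mitochondria had 11 tested genes, 4 positive and 7 negative, with a median of -0.11 that turned to 0.021 with size factors and to 0.18 with quantile normalization. SLC25A24, a calcium-regulated carrier of ATP-Mg and phosphate, was at 13.3 and 8.31 FPKM for Hampshire versus 3.72 and 3.56 for Mali. The breeds did not overlap, but the gap between them was narrower than the spread inside Hampshire. The difference was 1.31 (standard error 0.38), with a limma adjusted p = 0.527. OGDH, the oxoglutarate dehydrogenase subunit that responds to matrix calcium, was at 76.0, 73.1, 74.1 and 188.6 FPKM in Hampshire replicates 1 and 2 and Mali replicates 1 and 2, so Mali replicate 2 stood alone. PDP1, the calcium-stimulated phosphatase of pyruvate dehydrogenase, was at 21.8 and 14.8 FPKM for Hampshire versus 7.07 and 18.7 for Mali. PDPR, its regulatory subunit, was at 8.45 and 8.42 FPKM against 7.03 and 19.4. In 9 of the 11 genes Hampshire was higher within pair 1 and lower within pair 2.

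Nuclear-coded mitochondrial structure genes had 16 tested members, 7 positive and 9 negative, and 11 of them were higher within pair 1 and lower within pair 2. Their median was -0.065, with 0.64 within pair 1 and -0.64 within pair 2, and it turned to 0.070 with size factors and 0.15 with quantile normalization. TFAM, a factor of mitochondrial DNA packaging and transcription, was at 8.58 and 9.25 FPKM for Hampshire versus 11.6 and 21.5 for Mali. TOMM40, the outer membrane import pore, was at 18.8 and 15.4 FPKM against 22.7 and 28.8. OPA1, an inner membrane fusion GTPase, was at 7.40 and 4.20 FPKM against 8.76 and 8.30, and PHB2, a prohibitin scaffold subunit, at 54.2 and 50.5 against 60.6 and 76.6. The breeds did not overlap for these 4 genes, which were named for their low unadjusted p. Their adjusted p in limma ran from 0.833 for TFAM to 0.943 for PHB2. In the whole list 31.2% of genes were without overlap, against 36.6% of all tested genes. Of the 16, 5 were lower in Hampshire without overlap and 0 higher, against 23.6% and 13.0% of all tested genes.

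**Figure D3:**
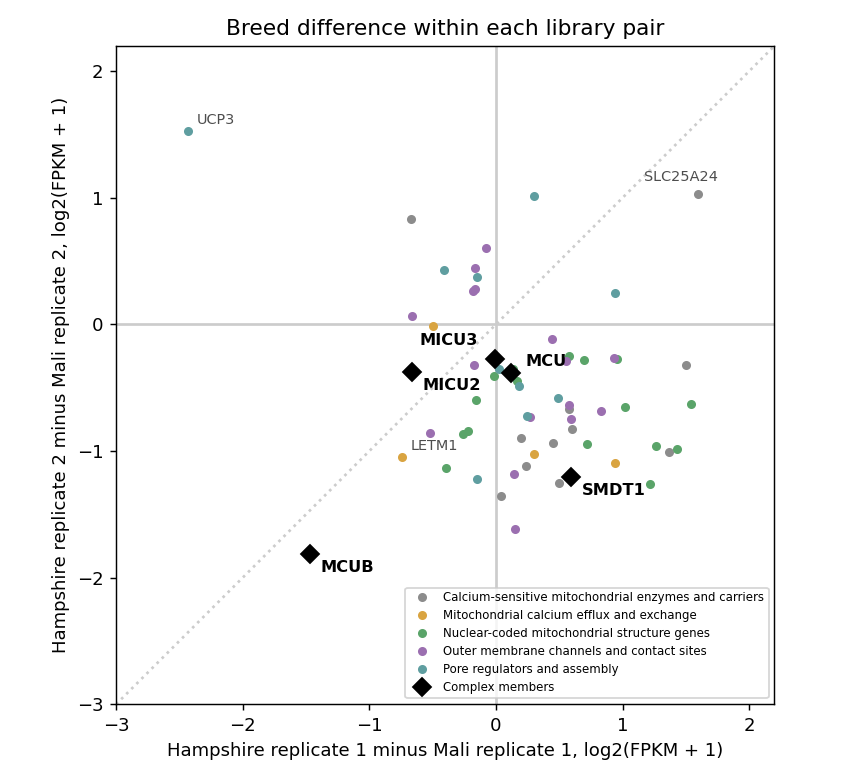
Breed difference on the log2(FPKM + 1) scale within pair 1 (horizontal axis) and pair 2 (vertical axis), for the 5 members (black diamonds) and 57 genes of 5 pathway lists (coloured circles). MCUB lies near the dotted line of equal differences at -1.47 and -1.82, whereas SMDT1 at 0.60 and -1.21 lies in the lower right quadrant with 35 of the pathway genes.

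Genes whose 4 library values ran most like each member were taken from 5246 named genes with a mean of at least 5 FPKM, by the distance between values of log2(FPKM + 1) centred on each gene's mean. With 4 libraries such likeness is easily reached, and it is a description only. Nearest to MCUB was CD59, a membrane inhibitor of complement, at 43.2 and 49.8 FPKM for Hampshire versus 137.4 and 152.4 for Mali, with a distance of 0.23. It was followed by SLC43A2, an amino acid transporter, at 3.81 and 4.27 FPKM against 14.7 and 16.2. TUBB4B, a beta tubulin, was at 24.2 and 25.2 FPKM against 69.8 and 114.2. The closest genes to MCU were ZFR, RNF103 and MAGT1, with distances of 0.037, 0.050 and 0.053. Closest to MICU2 were MBD1, PURB and CDK11B, and closest to MICU3 were CAPN2, FXR1 and APPBP2. Those closest to SMDT1 were HIGD2A, a factor of respiratory chain assembly, KCNJ12, an inward rectifier potassium channel, and FBXL17. HIGD2A was at 89.8 and 94.5 FPKM for Hampshire versus 62.5 and 198.8 for Mali.

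**Figure D4:**
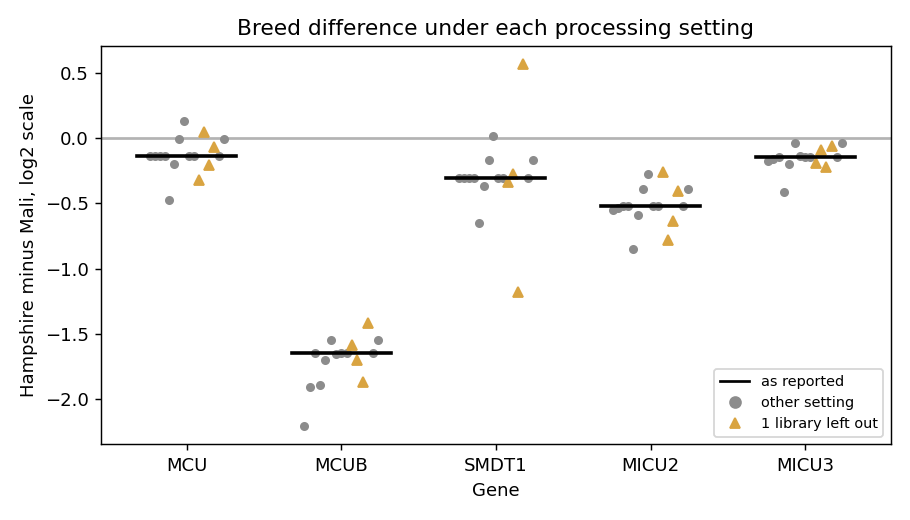
Breed difference of each member on the log2 scale under every processing setting tried, with a black bar for the reported value, grey circles for other settings and triangles for settings that leave out 1 library. MCUB stays between -2.21 and -1.41, whereas SMDT1 runs from -1.18 to 0.57 with the library left out.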

How the data were processed

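The authors deposited 1 table of 30213 rows of FPKM values by gene and library. Beside them stand the authors' breed means and, from their own comparison, a log2 fold change with its score, p-value and q-value, per the file headers. HISAT2, Bowtie 0.12.2, Picard and Cuffdiff are named in the submitters' processing notes, with no role or order. The genome build was not given in the sources used here, nor was the strand setting. In 98.2% of rows symbol, start and end were identical to RefSeq's for Sscrofa11.1, the build used for coordinates. The deposited fold changes equal Hampshire over Mali of the deposited means within 0.01.

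Libraries were grouped by breed and numbered in accession order. A row without gene name was left out, 26 symbols turned into dates were restored, and rows of a symbol were summed. Genes that reached 1 FPKM in 2 or more libraries were tested by limma 3.58.1 (R 4.3.3) on log2(FPKM + 1) values with a mean-variance trend, two-sided, and Benjamini-Hochberg adjustment at 0.05. It had 2 residual degrees of freedom and took 5.24 from the other genes. The fit was also run on simulated data. Their libraries were drawn independently, without library pairs or differences in scale, so that run cannot show how the fit handles these features. Of 67 list genes, 3 were matched by an older symbol and 62 were found in all.

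The members and lists were chosen with earlier results of these data known. Named were the members, up to 4 genes per list by lowest unadjusted p, and the 3 genes most like each member. Of the genes in these lists and rankings, some are not reported here. Alternatives were other pseudocounts, filters, scalings, variance settings, row choice, libraries left out and a replicate block. FPKM carry no read depth, so no counting interval is given. Figures were drawn with matplotlib 3.10.9.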

Additional observations from a re-analysis of the deposited data

How the results depend on the processing

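Across 16 alternatives, MCUB stayed lower in Hampshire wherever it was tested, with differences from -2.21 to -1.41 and adjusted p from 0.00425 to 0.842. It passed the threshold in 1 of them, the replicate block, at -1.64. With size factors added to the block its adjusted p was 0.0634. MCUB and MICU3 have no value with a mean of at least 5 FPKM, which they did not reach. MICU2 and MICU3 stayed negative throughout. Filters, variance settings, row choice and the replicate block cannot change the difference of a member. The block with size factors repeats the value with size factors alone. Only pseudocounts, scalings and left-out libraries could therefore turn a sign. MCU turned to 0.13 and SMDT1 to 0.021 with quantile normalization. With 1 library left out, MCU ran from -0.32 to 0.049 and SMDT1 from -1.18 to 0.57, and in such fits the lone library is assumed to vary like the other breed.

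The number of genes called, 0 as reported, was 1 with a mean of at least 5 FPKM, 68 after rescaling to a common sum, 63 with that rescaling without the mitochondrial genome, 261 with the replicate block and 57 with the block and size factors. After the 2 rescalings limma's prior degrees of freedom became infinite. With 1 library left out 0 to 7 genes were called, the 7 without Mali replicate 2. No gene of the pathway lists was called under any of these. The median difference of all genes was -0.12 as reported and -0.40 after rescaling to a common sum, and 0.0017 with no filter. The MCUB to MCU ratio difference of -2.16 became -1.51 with 1 added to both values. The labels do not say that replicate numbers pair the libraries. Deviations from the breed means correlated with r = 0.275 across genes between libraries of the same number. For different numbers r was -0.275, the mirror value that 2 libraries per breed must give. These are therefore not separate results, and 2 pairs are too few to settle whether the numbers mark pairs. Read depth, which would set the precision of MCUB near 1 FPKM, is not known.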
